A study of Mus musculus with 17 samples.

Results

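The sites described here are stretches of mouse DNA at which RUNX1 was called bound in one condition of the study and in no other: both RUNX1 ChIP-seq libraries of 416B cells that carried the CBFB-MYH11 construct and received no doxycycline. RUNX1 peaks of 8 libraries were joined into 1 site where 1 bp or more was shared. Sites were selected on RUNX1 peak calls: both CM -Dox libraries had to call a site and none of the other 6. This left 658 of 21664 RUNX1 sites (3.04%). Because RUNX1 calls made the choice, all RUNX1 values given for the 658 are descriptions and carry no test. CHD7 calls, positions and sequences played no part in the choice.

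The study mapped RUNX1 and the chromatin remodeller CHD7 by ChIP-seq in 416B, a mouse myeloid progenitor line, with 2 libraries per antibody in each of 4 conditions. CM cells carried a doxycycline-inducible type A Cbfb-Myh11 cDNA joined through F2A to mCherry; they were taken without doxycycline (CM -Dox) or after 1 µg/ml for 24 hours (CM +Dox). Control cells carried the vector without the fusion, also with (Control +Dox) and without (Control -Dox) the drug. An IgG sample was not analysed here. Every group shared a second integrated plasmid, with the tetracycline silencer tTS, the transactivator rtTA and blasticidin resistance under the Ef1alpha promoter, and had been kept under blasticidin. The cultures were grown from single mCherry-negative cells and selected as clones, so the construct and the clone that carries it cannot be told apart. Induction of the fusion was intended in CM +Dox only, and no measure of leakage in CM -Dox was used here.

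RUNX1 is a DNA-binding transcription factor of blood stem and progenitor cells, and CBFB is its partner, which does not itself touch DNA but strengthens RUNX1 binding. In the myeloid leukaemia that carries an inversion of human chromosome 16, CBFB is fused to MYH11, the heavy chain of smooth muscle myosin, and the fusion protein binds RUNX1. CHD7 is an ATP-dependent remodeller that slides nucleosomes and is found at many enhancers; its mutation causes CHARGE syndrome in people.

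The peak lists held 8140 to 16163 RUNX1 peaks and 16323 to 37698 CHD7 peaks. Both CM -Dox RUNX1 lists, with 13399 and 16163 peaks, had a p-value threshold of 1e-09. The other 6 RUNX1 lists had 1e-09 in 3 cases and 1e-07 in the other 3, so by threshold none of the 6 was stricter than the CM -Dox lists. At one threshold of 1e-09 for all lists, 664 sites met the rule and all 658 were among them. The length of the lists moved the count. With 8140 peaks in every list, 309 sites met the rule, 149 of the 658 were found again, and CM +Dox had 901 sites of its own. When only peaks that reached the pooled median RUNX1 score were used, 593 sites met the rule and 144 of the 658 were among them. The deposited lists end at their thresholds, so a site without a call may hold a weaker peak that the lists do not show. As deposited, CM +Dox alone called 181 sites, Control +Dox alone 51 and Control -Dox alone 99. In 1 list, that of Control -Dox RUNX1 replicate 1, the label and the +Dox tag in its peak names disagree. The label was used, and the 658 sites would be the same had the library been Control +Dox.

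Only a small number of the sites touched the start of a gene, and for those the DNA itself can be shown. The 658 sites overlapped 20 promoter windows of 19 protein-coding genes, each window running from 250 bases before a start to 50 after it (RefSeq, GRCm38.p6, the assembly that mm10 denotes). The windows of Tigit, Nkap and Bmf are printed because they hold a RUNX core motif within such a site, and that of Cyp11a1 because its site ranked high and its window holds none. Capitals mark each match to TGTGGT or TGCGGT on either strand, so that ACCACA and ACCGCA also count; overlapping matches run together.
Tigit, chr16:43664135-43664434, minus strand: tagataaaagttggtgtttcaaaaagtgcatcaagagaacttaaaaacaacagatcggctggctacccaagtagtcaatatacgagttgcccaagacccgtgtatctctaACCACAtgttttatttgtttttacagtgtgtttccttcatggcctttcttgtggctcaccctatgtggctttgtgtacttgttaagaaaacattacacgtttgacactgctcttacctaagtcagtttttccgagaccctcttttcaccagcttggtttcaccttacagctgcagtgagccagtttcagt
Nkap, chrX:37126513-37126812, plus strand: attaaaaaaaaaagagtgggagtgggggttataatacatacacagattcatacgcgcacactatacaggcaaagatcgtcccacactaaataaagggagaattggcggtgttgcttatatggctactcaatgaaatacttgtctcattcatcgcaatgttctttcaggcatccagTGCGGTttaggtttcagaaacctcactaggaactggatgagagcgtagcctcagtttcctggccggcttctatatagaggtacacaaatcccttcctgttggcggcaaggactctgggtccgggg
Bmf, chr2:118547550-118547849, minus strand: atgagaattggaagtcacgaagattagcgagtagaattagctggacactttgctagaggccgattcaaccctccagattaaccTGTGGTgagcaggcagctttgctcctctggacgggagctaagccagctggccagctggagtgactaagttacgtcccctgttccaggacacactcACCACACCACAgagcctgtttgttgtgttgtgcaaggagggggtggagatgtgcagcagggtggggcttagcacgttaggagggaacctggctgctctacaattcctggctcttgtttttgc
Cyp11a1, chr9:58014702-58015001, plus strand: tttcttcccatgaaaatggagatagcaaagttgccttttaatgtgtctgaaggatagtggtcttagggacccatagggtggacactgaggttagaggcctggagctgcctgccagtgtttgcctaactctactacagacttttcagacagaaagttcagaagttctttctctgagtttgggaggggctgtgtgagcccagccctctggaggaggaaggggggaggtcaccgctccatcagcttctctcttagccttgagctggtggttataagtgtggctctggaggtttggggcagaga

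Tigit encodes an inhibitory receptor of T and NK cells, and its site (chr16:43664169-43664508) covered 266 of the 300 bases, with 1 motif match at base 111. The RUNX1 score there, the −log10 p-value the authors gave the peak, was 40.4 in CM -Dox replicate 1 and 55.4 in replicate 2, and CHD7 was called in CM -Dox replicate 2 and in both CM +Dox libraries but in no control library. Nkap encodes a nuclear protein of NF-kappaB and Notch signalling, and its site (chrX:37126578-37126888) covered 235 bases, with a match at base 176 and CHD7 called in all 8 libraries. The window of Bmf, a pro-apoptotic BH3-only gene, held 3 matches, at bases 84, 179 and 184, and its site (chr2:118547543-118547770) had CHD7 in no library. The window of Cyp11a1, the enzyme that begins steroid synthesis from cholesterol, lay wholly inside its site (chr9:58014427-58015087), held no match and had no CHD7 call in any library. The 4 windows were picked for what they hold, so they do not show how common a match is among the sites. The windows of Bmx, a cytoplasmic tyrosine kinase, and Aqp9, a water and glycerol channel, also held no match. The parts of their sites outside the windows were not searched. CHD7 was called at the Aqp9 site in 7 libraries and at the Bmx site in none. Over all 20 windows, 7 held a match (35.0%, Wilson 95% interval 18.1% to 56.7%). The share was 28.3% of the 1963 windows under a site called in all 8 RUNX1 libraries and 21.6% of all 21263 windows. The interval of the 20 windows spans both shares, but it takes the windows as separate. Those of Gpr137c and Txndc16 share a site and hold the same match, which was counted for each. The Aak1 windows also share a site. Base sequence away from gene starts was not used here.

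The RUNX1 peaks behind the 658 sites were mostly of low to middling rank within their lists. The score is the authors' own −log10 p-value of a peak, and it was ranked within each list, with 100 the highest. In CM -Dox replicate 1 the sites had a median score of 23.1, against 32.2 over the whole list, and a median percentile of 28.9 (interquartile range 16.3 to 44.8). In CM -Dox replicate 2 they had a median score of 28.4, against 33.0 over the list, and a median percentile of 40.6 (25.6 to 57.4). The sites lay above the list's median in 16.4% of cases in replicate 1 and in 36.0% in replicate 2, and 95 of the 658 (14.4%) did so in both. They were narrow as well, with a median peak width of 241.5 and 268.5 bp in the 2 lists, where the lists had 309 and 316 bp. Sites called in all 8 libraries had median percentiles of 74.0 and 76.7 in the same lists.

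**Figure D1:**
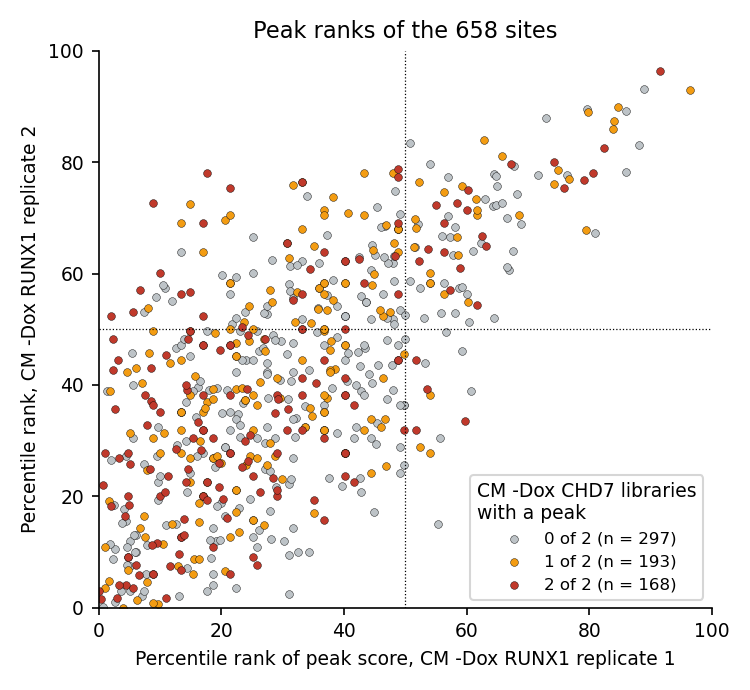
Percentile rank of the RUNX1 peak score in CM -Dox replicate 1 (x axis) and replicate 2 (y axis), 1 point per site, 658 in all, coloured by the number of CM -Dox CHD7 libraries that called the site; dotted lines mark the middle of each list. Most points lie in the lower left, 95 lie above the middle in both lists, and sites called by both CHD7 libraries (168) are spread over the whole range.

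Sites just outside the rule had nearly the same ranks as those just inside it. Both CM -Dox libraries called 12304 sites, of which 658 were called by none of the other 6, 488 by exactly 1 and 4833 by all 6. For the 488, median percentiles were 27.9 and 41.3. The single other library was CM +Dox replicate 1 for 23 sites and replicate 2 for 139, Control +Dox replicate 1 for 71 and replicate 2 for 60, and Control -Dox replicate 1 for 70 and replicate 2 for 125. Each of the 6 libraries thus held some sites back from the rule, and CM +Dox replicate 1, whose list was the shortest, held back the fewest. A further 248 sites were called in CM -Dox replicate 1 only and 1424 in replicate 2 only.

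The highest-ranked sites lay near or in genes of varied function. First by mean rank came a site between genes, 7.45 kb from Ptger2, a prostaglandin E2 receptor gene (chr14:45011268-45011650), with scores of 140 in CM -Dox replicate 1 and 121 in replicate 2. Next was a site 39.01 kb from Tnc, which encodes the matrix protein tenascin C (chr4:64086021-64086413), with scores of 99.2 and 158. The third lay inside Myof, a gene for a membrane-repair protein (chr19:38033745-38034108), with scores of 86.1 and 124. Their percentiles ran from 89.0 to 96.5 over both lists, and their CHD7 calls differed: CM -Dox replicate 2 alone at the Ptger2 site, both CM -Dox libraries and no other at the Tnc site, and none at the Myof site.

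Of the 20 highest-ranked sites, 10 lay inside a protein-coding gene. Besides Myof these included Arel1, a ubiquitin ligase; Slc36a3, of an amino acid transporter family; Ncam2, a cell adhesion molecule; Plekhg3; Sgms1, a sphingomyelin synthase; Acsl3, which activates fatty acids; and Ttc39c. The other 10 were nearest Ptger2, Tnc, Gnao1, Prkar2b, Tmem86a, Zeb2, Gm11232, Sgce, Noct and Abca8b, at distances from 4.88 kb (Abca8b) to 858 kb (Zeb2). CHD7 was called in no library at 7 of the 20, among them the sites in Myof, Ncam2 and Plekhg3 and those near Gnao1, Tmem86a and Sgce. It was called in both CM -Dox libraries at 6, in Sgms1 and Acsl3 and near Tnc, Gm11232, Noct and Abca8b. Control libraries called CHD7 at 4, in Sgms1 and near Prkar2b, Gm11232 and Noct. At the other end, the 3 lowest-ranked sites lay at Itprip (chr19:47919185-47919829; CHD7 in all 8 libraries), 1.13 kb from Cuedc2 (chr19:46339798-46340060; CHD7 in 5) and 0.149 kb from Osm, the gene of the cytokine oncostatin M (chr11:4236323-4236636; CHD7 in none).

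CHD7, which the rule did not use, was called at more of these sites in CM cells than in control cells. In CM -Dox, CHD7 replicate 1 called 30.2% of the 658 sites (Wilson 95% interval 26.9% to 33.9%, counting error only) and replicate 2 called 50.2% (46.3% to 54.0%). In CM +Dox the shares were 21.3% and 28.1%. In Control +Dox they were 13.2% and 15.8%, and in Control -Dox 10.8% and 14.1%. Every CM library stood above every control library, and both CM -Dox libraries stood above all other 6. The CHD7 lists differ in length. The longest, CM -Dox replicate 2 with 37698 peaks, called the most sites, and within CM -Dox, Control +Dox and Control -Dox the longer list called more. Between conditions the values differ in order: CM -Dox replicate 1 had 17554 peaks, CM +Dox replicate 1 33462 and replicate 2 31688, and Control +Dox replicate 2 32448. The part of list length in the order of the shares was not tested. With equal list lengths the rule gave 309 sites, of which 149 were among the 658, so the sites changed as well. At the 309, CM -Dox differed from the rest by 25.2 points (exact permutation p = 0.0357). CM libraries differed from control libraries by 14.2 points there (exact permutation p = 0.0857).

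CM libraries also stood above control libraries at the sites just outside the rule, but not at the sets that a control condition called alone. At the sites only in CM +Dox, no CM library stood below a control library. The lowest CM share there equalled the highest control share, 24.3%. At the 488 sites called in both CM -Dox RUNX1 libraries and 1 other, CHD7 was called at 40.8% and 61.5% in CM -Dox and 31.4% and 44.5% in CM +Dox, against 22.3% and 26.2% in Control +Dox and 21.7% and 28.9% in Control -Dox. At the 181 RUNX1 sites only in CM +Dox, CM +Dox had the highest CHD7 shares, 44.8% and 52.5%, with 24.3% and 33.1% in CM -Dox and 19.3% to 24.3% in the control libraries. At the 99 sites only in Control -Dox, the shares were 25.3% and 36.4% in CM -Dox and 22.2% and 34.3% in CM +Dox. There they were 36.4% and 33.3% in Control +Dox and 32.3% and 37.4% in Control -Dox. At the 51 sites only in Control +Dox, they were 23.5% and 43.1% in CM -Dox and 29.4% and 33.3% in CM +Dox. The control libraries had 35.3% and 41.2% (Control +Dox) and 27.5% and 33.3% (Control -Dox) at those 51. No test was run on these sets.

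**Figure D2:**
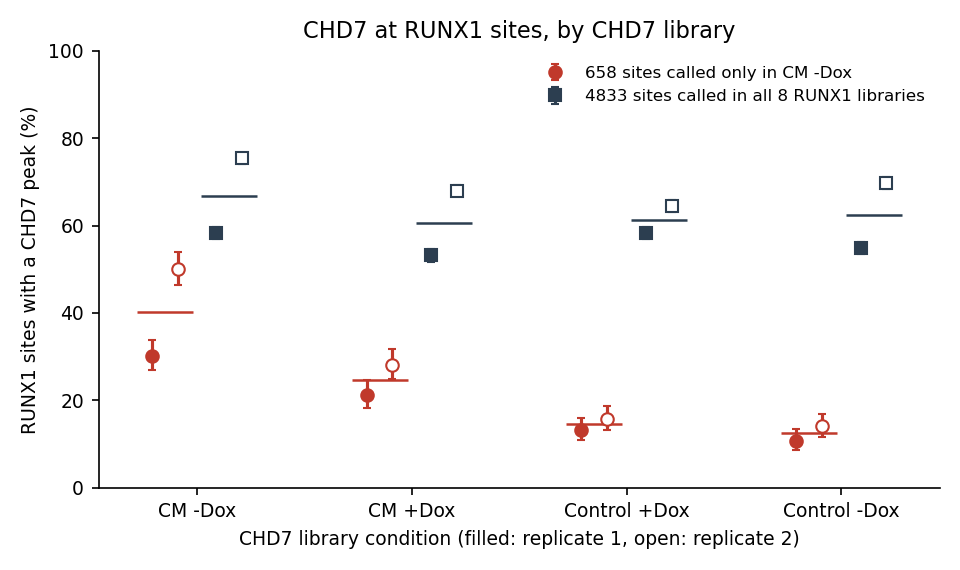
Share of RUNX1 sites with a CHD7 peak (y axis, %) in each of the 8 CHD7 libraries, by condition (x axis), for the 658 sites called only in CM -Dox (circles) and the 4833 called in all 8 RUNX1 libraries (squares); error bars are Wilson 95% intervals and lines are means of 2 libraries. The circles stand at 30.2% and 50.2% in CM -Dox and at 10.8% to 15.8% in the control libraries, while the squares overlap between all conditions.

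CM -Dox averaged 40.2% ± 14.1 (SD, n = 2) and the other 6 libraries 17.2% ± 6.39, a difference of 23.0 percentage points (two-sided exact permutation test, p = 0.0357; no smaller p exists among its 28 choices). The 4 CM libraries averaged 32.4% ± 12.4 and the 4 control libraries 13.5% ± 2.09, a difference of 18.96 points (exact permutation test, p = 0.0286; no smaller p exists among its 70 choices). At the 4833 sites called in all 8 RUNX1 libraries, the CHD7 shares were 58.3% and 75.4% in CM -Dox, 53.2% and 68.0% in CM +Dox, 58.2% and 64.6% in Control +Dox, and 54.96% and 69.8% in Control -Dox. Those shares overlap between all 4 conditions. Each library was therefore also set against itself, as the log2 odds ratio of a CHD7 call at the 658 sites against the 4833. It was negative in all 8 libraries, so CHD7 was called less often at the 658 sites than at the 4833 in each. It averaged -1.65 ± 0.06 (n = 2) in CM -Dox and -3.02 ± 0.64 (n = 6) elsewhere, a difference of 1.37 (exact permutation test, p = 0.0357). For the construct it averaged -1.95 ± 0.38 in CM and -3.40 ± 0.28 in control libraries (n = 4 each), a difference of 1.45 (exact permutation test, p = 0.0286). After Benjamini-Hochberg adjustment over these 4 tests, p was 0.0357 for each. Nothing in the labels says that replicates were separate cultures, so these p-values measure only the spread between libraries, which may be technical. The sites were chosen for RUNX1 calls in CM -Dox and none elsewhere, so the conditions were not on an equal footing at them. No CHD7 test at these sites, here, above or below, takes that choice into account. The p-values therefore do not show a difference apart from it. Leaving out CM -Dox CHD7 replicate 1 gave a difference of 32.9 points between CM -Dox and the rest and leaving out replicate 2 gave 13.0, both with exact permutation p = 0.143, the smallest left. With equal list lengths the construct difference was 14.2 points at 309 sites (exact permutation p = 0.0857).

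The change of the mean CHD7 share with doxycycline had opposite signs in CM and control cells, and the design cannot take the exact test of that difference under 0.05. The rule itself required RUNX1 calls in CM -Dox and none in CM +Dox, which the test does not take into account. In CM cells the mean share was 24.7% ± 4.84 with the drug and 40.2% ± 14.1 without it, a difference of -15.5 points. In control cells it was 14.5% ± 1.83 with the drug and 12.5% ± 2.36 without it, a difference of 2.05 points. The difference between these changes was -17.6 points (exact permutation test over 36 splits, p = 0.111; 0.0556 is the smallest possible), and on the log2 odds scale it was -0.94 (p = 0.0556 by the same exact test). Subtracted by replicate number, CM libraries differed by -8.97 and -22.0 points and control libraries by 2.43 and 1.67. Same-numbered libraries were not taken as pairs, so this is only 1 way to match them and not a repeat of the change.

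Site by site, CHD7 was called in no library at 256 of the 658 (38.9%), against 25.7% of all RUNX1 sites. Both CM -Dox CHD7 libraries called 168 sites (25.5%), below the 35.2% of all RUNX1 sites that they called. Both CM +Dox libraries called 104 (15.8%; 30.2% of all sites), all 4 control libraries 28 (4.26%; 21.7% of all sites) and all 8 libraries 23 (3.50%; 15.1% of all sites). A call in 1 or more CM libraries and in no control library was found at 224 sites (34.0%), against 13.4% of all RUNX1 sites. The reverse, 1 or more control libraries and no CM library, was found at 6 (0.912%), against 7.57% of all. No site had CHD7 in all 4 control libraries and no CM library, a pattern found at 0.457% of all RUNX1 sites. CHD7 in both CM -Dox libraries and no other was found at 26 sites (3.95%), against 0.729% of all, and in all 4 CM libraries and no control library at 13 (1.98%), against 0.872%. These shares are set beside all RUNX1 sites as a description, since sites of the same libraries are not replicates.

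The 10 highest-ranked of the 26 sites with CHD7 in both CM -Dox libraries alone lay in Acsl3, Lrrc4c (a synaptic adhesion protein), Rab31 (a small GTPase of vesicle transport), Nrip1 (a corepressor of nuclear receptors) and Dop1b, and nearest Tnc, Dnah14, Tmem252, Hspa8 (a constitutive heat shock protein) and Sos1 (an activator of RAS). The site 4.82 kb from Sos1 (chr17:80485270-80485560) had RUNX1 scores of 27.3 and 42.0, and the one in Nrip1 (chr16:76300525-76300808) had 24.5 and 61.1. The 10 highest-ranked of the 23 sites with CHD7 in all 8 libraries lay in Gm38469, Nkap, Ptprk, Ccdc146, Gtdc1 and Jak2, at 0.662 kb from Slc35e2 and nearest Ptprd, Ranbp6 and Lipo4. Their mean percentiles ran from 24.8 to 48.1, below the 51.1 to 94.0 of the 10 sites called in CM -Dox alone.

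The lowest-ranked sites had more CHD7 calls than the highest-ranked in every library. When the sites were cut into 4 parts by mean RUNX1 rank, CHD7 in the lowest part (165 sites) was called at 35.2% and 55.8% in CM -Dox, 37.0% and 44.2% in CM +Dox, 22.4% and 26.1% in Control +Dox and 16.97% and 27.3% in Control -Dox. In the highest part (165 sites) the shares were 25.5% and 45.5% in CM -Dox, 9.70% and 13.9% in CM +Dox, 4.85% and 7.88% in Control +Dox and 1.82% and 6.06% in Control -Dox. The CM -Dox shares did not go down part by part: from the lowest part to the highest they were 35.2%, 36.6%, 23.8% and 25.5% in replicate 1 and 55.8%, 56.1%, 43.3% and 45.5% in replicate 2. Among the highest-ranked sites, the lowest CM -Dox share was above the highest share of any other condition, whereas among the lowest-ranked sites CM -Dox and CM +Dox overlapped. The split uses the same RUNX1 scores as the rule and was not tested.

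Most of the sites lay away from gene starts. Starts were at hand for 17492 of the 21887 protein-coding genes and for no gene on chromosome 18, which leaves 631 of the 658 sites. Of these, 33 lay within 1 kb of a start (5.23%, Wilson 95% interval 3.75% to 7.25%), against 26.8% (26.2% to 27.4%) of all other RUNX1 sites and 35.6% of those called in all 8 libraries. Sites called in both CM -Dox libraries and 1 other stood at 9.41%, and those called only in CM +Dox at 32.0%, only in Control +Dox at 20.4% and only in Control -Dox at 28.3%. The sites only in CM -Dox thus had the lowest share near a start of the 4 sets that 1 condition called alone. The median distance to a start was 31.7 kb, and 15.6 kb for all other RUNX1 sites. By either end of a gene, over all chromosomes, 6.53% of the 658 lay within 1 kb, against 30.7% of all other sites. Inside a protein-coding gene lay 353 (53.6%), against 65.0%; exon, intron and UTR positions were not used here.

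**Figure D3:**
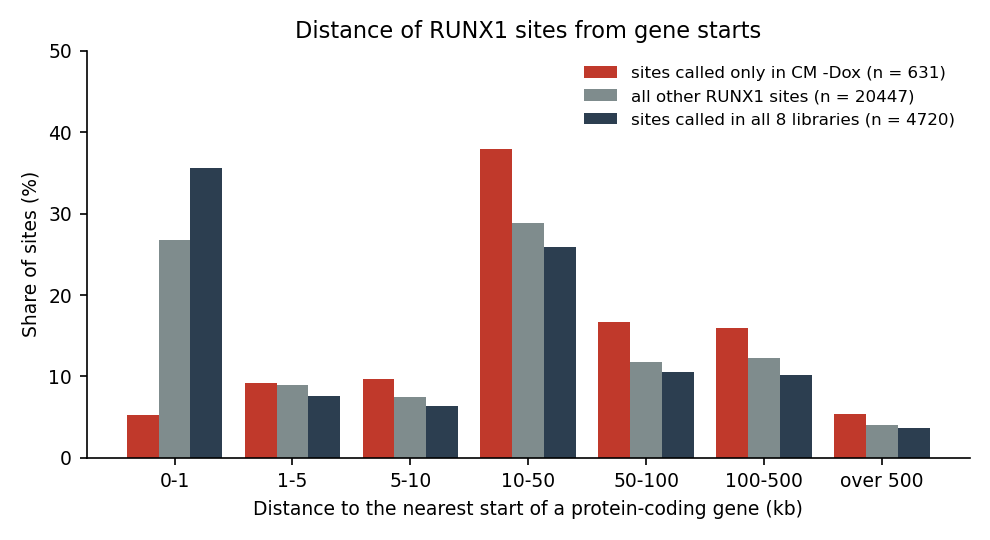
Share of sites (y axis, %) by distance to the nearest start of a protein-coding gene (x axis, kb) for 631 sites called only in CM -Dox, all 20447 other RUNX1 sites and the 4720 called in all 8 libraries, on chromosomes with starts at hand. Within 1 kb lie 5.23%, 26.8% and 35.6% of the sets, and the first set leads in every bin beyond 1 kb.

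Away from starts the CHD7 pattern was much the same. At the 540 sites over 5 kb from a start, an alternative added after the data were seen, the CHD7 share differed by 23.0 points between CM -Dox and the other 6 libraries (exact permutation p = 0.0357) and by 18.7 points between the constructs (p = 0.0286 by the same exact test). The log2 odds difference of CM -Dox from the rest was 1.28 there, with an exact permutation p of 0.0714.

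Most of the sites lay more than 50 kb from any other of the 658, and the same was not counted for other RUNX1 sites. Runs of sites within 50 kb of each other numbered 43 and held 90 of the 658 (13.7%). Most runs had 2 sites (39), and 4 had 3: at Rasgef1c and Rnf130, in Nrip1, in Lclat1 and near Ranbp6. The Lclat1 run spanned 1.64 kb (chr17:73225993-73227632). The median distance to the nearest RUNX1 site called in all 8 libraries was 78.1 kb, against 60.4 kb for all other sites. Within 5 kb of one lay 8.51%, against 11.1% of all other sites.

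The sites were not spread over the chromosomes as all RUNX1 sites were. Chromosome 19 held 73 of the 658 (11.1%, Wilson 95% interval 8.92% to 13.7%), against 4.05% of all RUNX1 sites. Chromosome 14 held 9 (1.37%, 0.721% to 2.58%), against 3.23%. Chromosome 18 held 27 (4.10%, 2.84% to 5.90%), against 2.70%, and chromosome 7 held 28 (4.26%, 2.96% to 6.08%), against 6.33%. On these 4 chromosomes the interval, which covers counting error only, did not reach the share of all sites; on the other 16 it did.

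**Figure D4:**
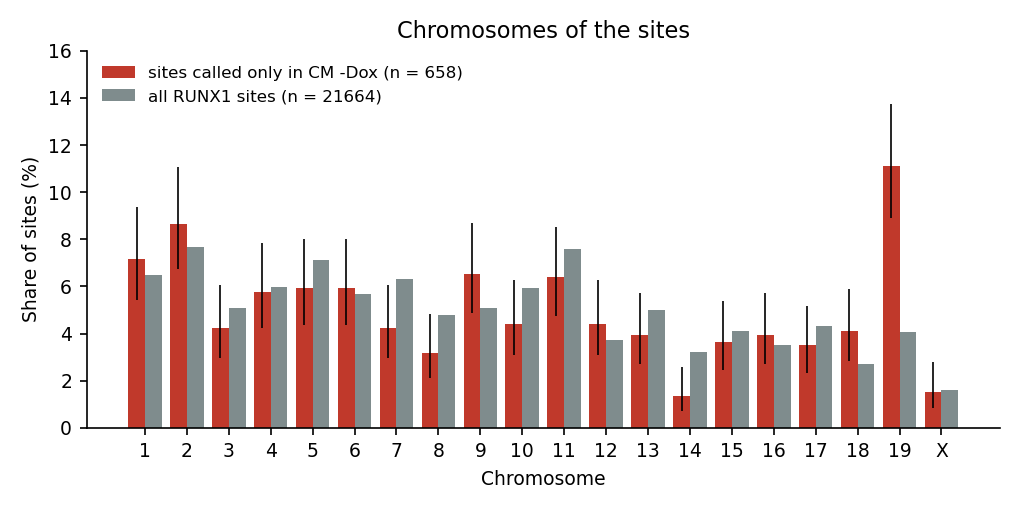
Share of sites (y axis, %) on each chromosome (x axis) for the 658 sites called only in CM -Dox and all 21664 RUNX1 sites; lines are Wilson 95% intervals. Chromosome 19 stands out with 11.1% against 4.05%.

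The whole peak lists showed the same 2 chromosomes, in all CM libraries and not in CM -Dox alone. Chromosome 19 held 8.29% and 7.94% of CHD7 peaks in CM -Dox and 8.13% and 7.85% in CM +Dox, against 2.27% and 2.76% in Control +Dox and 2.31% and 2.86% in Control -Dox. For RUNX1 it held 4.67% and 4.57% in CM -Dox and 5.22% and 4.96% in CM +Dox, against 2.83% and 3.08% in Control +Dox and 2.89% and 3.18% in Control -Dox. CM and control libraries did not overlap for either antibody. For CHD7 the means were 8.05% ± 0.198 and 2.55% ± 0.304 (SD, n = 4 each), a difference of 5.50 points (p = 0.0286, also the lowest value this exact test can give). Chromosome 14 went the other way, with 1.50% ± 0.117 of CHD7 peaks in CM and 4.14% ± 0.114 in control libraries (n = 4 each, exact permutation p = 0.0286). Chromosomes 2 and 3, with differences of -0.840 and -0.581 points, had the same p. Over 21 chromosomes the adjusted p of all 4 was 0.15, and with so high a smallest p, 4 such chromosomes could not have passed the adjustment whatever their differences. These comparisons were added after the data were seen. On the other 18 chromosomes the ratio of mean shares, CM over control, ran from 0.901 to 1.26 for CHD7 and from 0.910 to 1.07 for RUNX1.

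**Figure D5:**
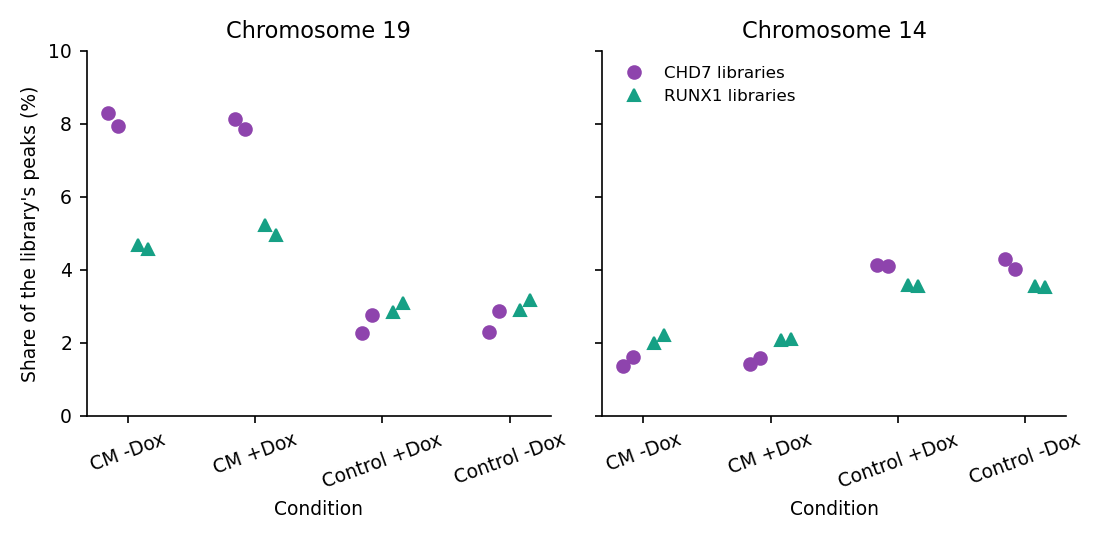
Share of each library's peaks (y axis, %) on chromosome 19 (left) and chromosome 14 (right) by condition (x axis), 1 point per library, circles for CHD7 and triangles for RUNX1. On chromosome 19 the CM CHD7 libraries lie at 7.85% to 8.29% and the control ones at 2.27% to 2.86%, and on chromosome 14 the order is reversed.

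Of the 73 sites on chromosome 19, CHD7 was called at 53.4% and 69.9% in CM -Dox and 46.6% and 52.1% in CM +Dox, against 12.3% and 19.2% in Control +Dox and 15.1% and 24.7% in Control -Dox. On the other chromosomes (585 sites) the shares were 27.4% and 47.7% in CM -Dox and 18.1% and 25.1% in CM +Dox, against 13.3% and 15.4% in Control +Dox and 10.3% and 12.8% in Control -Dox. The CM libraries stood above the control libraries in both sets. Without chromosome 19 the CHD7 difference was 21.7 points for CM -Dox against the rest (exact permutation p = 0.0357). For the construct it was 16.6 points (p = 0.0286 by the same exact test). Both p-values are the smallest possible, and neither test takes the choice of the sites into account. The part of chromosome 19 in the CHD7 differences was not tested. Named sites on chromosome 19 include those in Myof, Sgms1 and Jak2 and those near Ranbp6, Tmem252, Lipo4, Itprip, Cuedc2 and Ms4a2. The number of copies of each chromosome in the clones was not analysed here.

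By gene, 422 of 21887 protein-coding genes (1.93%) had 1 or more of the sites in the gene or within 5 kb of it, and 241 sites had no gene that close. Lclat1 (an acyltransferase of cardiolipin and other lipids), Myof, Nrip1 and Sgms1 had 3 each, and 19 genes had 2, among them Foxp1 (a transcription factor of lymphocyte development), Dock2 (an activator of RAC in leukocyte migration), Armc3, Cyrib, Fbxw11 and Iqschfp. These genes also held other RUNX1 sites. Sgms1 had 26 in all, Foxp1 15, Dock2 10, Nrip1 9, Lclat1 7 and Myof 6. Gene length was not taken into account.

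Of 26 haematopoietic transcription factors 3 had a site (11.5%, against 1.93% of all genes; 14.3% of those with any RUNX1 site, against 4.17%): Etv6 (a repressor needed by blood stem cells), Meis1 (a HOX cofactor) and Runx2 (a paralogue of Runx1). The Etv6 site (chr6:134130872-134131180) had RUNX1 scores of 14.2 and 29.1. The Meis1 site (chr11:18948922-18949172) had scores of 16.3 and 24.2, while 3 other sites in or by Meis1 were called in all 8 RUNX1 libraries. The Runx2 site (chr17:44800624-44800860), with scores of 23.1 and 24.2, also lay within Supt3, and 4 other Runx2 sites were called in all 8 libraries. CHD7 was called at each of these 3 sites in 1 CM library and in no control library. In these genes the sites stood beside others that RUNX1 occupied in every condition.

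Of 30 signalling genes 4 had a site (13.3%) and of 22 chromatin genes 3 (13.6%), against the same 1.93% of all genes. Among genes with any RUNX1 site the shares were 15.4% and 14.3%, against 4.17%. Stat5b and Jak2 carry the signals of cytokine receptors, Map3k1 is a MAP kinase kinase kinase and Tgfbr2 a receptor of TGF-beta. The site in Jak2 (chr19:29253856-29254136) had scores of 12.5 and 32.0 and CHD7 in all 8 libraries. The sites in Stat5b (chr11:100795428-100795710) and Map3k1 (chr13:111812727-111813010) had CHD7 in none, and that by Tgfbr2 (chr9:116084632-116084930) in both CM +Dox libraries only. Among the chromatin genes, the sites in Dot1l (an H3K79 methyltransferase; chr10:80763503-80763809) and Kdm6a (an H3K27 demethylase; chrX:18248781-18249064) had CHD7 in none, and that in Chd1, a relative of Chd7 (chr17:15741915-15742237), in all 4 CM libraries and Control +Dox replicate 1. The Dot1l site ranked highest of these 7, with scores of 42.9 and 54.5.

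Of 21 megakaryocyte and mast cell genes 2 had a site: Cpa3, a mast cell protease (chr3:20239777-20240086; scores 31.6 and 66.1; CHD7 in all 4 CM libraries and Control -Dox replicate 1), and Ms4a2, a chain of the IgE receptor (chr19:11611658-11611936; scores 16.9 and 20.6; CHD7 in 6 libraries). Of 24 cell cycle and apoptosis genes 1 had a site, Cdk4, by way of a site in its neighbour Tspan31. None of the 26 myeloid, 13 erythroid, 20 lymphoid, 20 adhesion, 16 neural crest, 12 liver and 27 ribosomal protein genes had one. Over all 13 lists 14 of 272 genes had a site (5.15%), against the 1.93% of all genes. Of the listed genes 188, and of all genes 10120, had any RUNX1 site in that range, and of these 7.45% and 4.17% had one of the 658. The lists were written with earlier results of these data known, and no list was tested.

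Runx1, Chd7 and Myh11 had none of the 658 sites. Cbfb, in the list of 18 RUNX partners and corepressors, had 1 within 5 kb (chr8:105218005-105218298), just past the end of the gene (105217989), with low scores of 14.2 and 16.7 and CHD7 in all 8 libraries. The 4 other RUNX1 sites at Cbfb, and the 3 in Myh11, were called by RUNX1 in CM libraries only and by CHD7 in the 4 CM libraries only. The Cbfb site thus differed in its CHD7 calls from the others at the 2 fusion genes. CM cells also carry Cbfb-Myh11 cDNA in the integrated construct. Peaks that arise from the construct cannot be told apart here from binding at the genes themselves, so these other sites are not read as binding at Cbfb or Myh11.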

How the data were processed

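RUNX1 and CHD7 were mapped by ChIP-seq in 16 libraries of 416B cells, 2 per antibody and condition. The submitters' processing notes name mm10, Bowtie2 2.0.6 and MACS2 2.0.10; per the labels' protocols, fixation was with 1% formaldehyde and fragments of 150 to 400 bp were kept. Peaks were called per library. Each deposited peak score is a −log10 p-value from the authors' peak caller; thresholds, per the file headers' peak names, were 1e-09 in 5 RUNX1 lists, 1e-07 in 3 and 0.01 in all CHD7 lists. The sources used here do not give the background library, read filters or read depth, so neither the number of peaks nor a score was taken as an amount of binding.

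Autosomes, X and Y were kept; 3 to 6 peaks per list lay elsewhere. Sites were merged at 1 bp of overlap, and a library called a site when 1 of its peaks overlapped it. The members and gene lists were chosen with earlier results of these data known. Scores were ranked within a list. CHD7 shares gave 1 value per library, compared by two-sided exact permutation tests (scipy 1.17.1, pandas 2.3.3, Python 3.11.15); log2 odds ratios had 0.5 added to each count. The scripts were tested on simulated data. Wilson 95% intervals reflect counting error alone. Genes were placed with the RefSeq table of GRCm38.p6, starts and promoter sequences from the RefSeq promoter table, which covers 17492 genes and none on chromosome 18; all listed genes but 1 of 273 matched.

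Sites and genes were named by rule: the 20 highest and 3 lowest sites by mean rank in the CM -Dox RUNX1 lists, up to 10 each with CHD7 in CM -Dox only and in all 8 libraries, listed genes with a site, the 10 genes with most sites, up to 5 promoter sites, and Runx1, Chd7, Cbfb and Myh11. Some sites that meet this rule are not reported here. Bmf, and the gene neighbourhoods in the closing section, were chosen after their values were seen. Alternatives tried were a common threshold, equal list lengths, a median score, a larger overlap, wider merging, the replicate number as a block, and leaving out each library.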

Additional observations from a re-analysis of the deposited data

Results flagged for a closer look

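One result was flagged because the mean CHD7 shares of the 2 kinds of cell changed in opposite directions. With doxycycline, the mean CHD7 share at the 658 sites differed by -15.5 percentage points in CM cells and by 2.05 points in control cells. The difference between these changes, CM minus control, was -17.6 points. Its exact permutation test over 36 splits gave p = 0.111, and on the log2 odds scale the difference was -0.94 with p = 0.0556. The smallest p this exact test can give is 0.0556, so it could not have reached 0.05. The rule asked for RUNX1 in CM -Dox and not in CM +Dox, and the test does not allow for that. At the 181 RUNX1 sites only in CM +Dox, the CM shares were 24.3% and 33.1% without the drug and 44.8% and 52.5% with it. Control libraries overlapped at the 658 sites, with 13.2% and 15.8% with the drug and 10.8% and 14.1% without.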

How the results depend on the processing

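No difference in CHD7 changed sign under an alternative run. The order of the counts of sites in 1 condition only did: as deposited CM -Dox had 658 and CM +Dox 181, and with equal list lengths 309 and 901. The count of 658 ran from 681 to 2085 when a RUNX1 library was left out of the rule, with 2085 without CM -Dox replicate 1. Leaving a library out takes away a requirement of the rule, so this count could not fall. The share of sites within 1 kb of a start, 5.23%, was 3.08% with equal list lengths, and 14.4% lay within 5 kb; leaving out a RUNX1 library gave 5.07% to 6.75%. Without 1 CHD7 library, the CHD7 difference of CM -Dox from the rest ran from 13.0 to 32.9 points (exact permutation p 0.0476 to 0.143), and without 1 RUNX1 library from 18.3 to 23.5 (exact p 0.0357 to 0.0714). The construct difference ran from 13.1 to 22.7 points (exact p 0.0286 to 0.0571) and from 16.4 to 21.6 (exact p 0.0286), and was 14.2 with equal list lengths (exact p = 0.0857). The log2 odds difference of CM -Dox ran from 1.21 to 1.56 (exact p 0.0476 to 0.143) and from 0.97 to 1.35 (exact p 0.0357), and was 1.28 at sites over 5 kb from a start (exact p = 0.0714). That of the construct ran from 1.31 to 1.61 and from 1.14 to 1.56, with exact p = 0.0286 in each. The cause of these shifts was not tested. With the replicate number as a block, the differences of 23.0 and 18.96 points and of 1.37 and 1.45 had exact p = 0.0625, 0.0556, 0.0625 and 0.0556, the smallest the block allows. Same-numbered CHD7 libraries deviated together with correlations of 0.00577 to 0.0718 over all RUNX1 sites, so the numbers were not taken as pairs. A common threshold, a median score, a larger overlap, wider merging and leaving out chromosome 19 or chromosomes 14 and 19 left every call on its side of the threshold. Depth is unknown, and 2 libraries per condition limit all comparisons.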

Other observations

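Among the 43 runs of sites, a few picked out for their neighbouring genes after the values were seen are given here and were not tested. A pair lay 20.2 and 33.3 kb from Cebpb, a transcription factor of myeloid maturation (chr2:167710604-167710902, RUNX1 scores 37.3 and 48.7; chr2:167723752-167724010, scores 38.3 and 31.0). CHD7 was called at neither in any library. Another pair lay 28.03 and 30.9 kb from Notch1, a cell-fate receptor (chr2:26531848-26532142, scores 39.6 and 43.6; chr2:26534702-26534938, scores 23.5 and 17.8), with CHD7 at the second in CM +Dox replicate 2 only.

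On chromosome 15, a site 5.47 kb from Nfe2, an erythroid and megakaryocyte factor (chr15:103263874-103264169), had scores of 25.9 and 37.4, and its neighbour in Cbx5, the gene of heterochromatin protein HP1-alpha (chr15:103221491-103221726), had 23.7 and 30.6. Near Ranbp6 3 sites within 26.1 kb differed in CHD7: all 8 libraries called the first (chr19:29824382-29824666), the 4 CM libraries alone the second (chr19:29825072-29825333) and both CM -Dox libraries alone the third (chr19:29850122-29850459).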
